A study of Bos taurus with 38 samples.

Results

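ENSBTAG00000036028 and ENSBTAG00000048087 are 2 of the 12543 Ensembl genes listed for the rumen papillae of each of the 38 bulls examined here. They were chosen by their measured diet differences, because the difference between restricted (RES) and control (ADLIB) bulls had one sign at the end of Period 1 and the other sign at the end of Period 2. ENSBTAG00000036028 was higher in RES than in ADLIB at the end of restriction and lower in RES after re-alimentation, and ENSBTAG00000048087 showed the mirror image. No table used here pairs an Ensembl identifier with a symbol, a position or a sequence (0 of 12802 identifiers matched), so what the genes encode is not given, and the tissue could not be checked against marker genes.

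All animals were male Holstein Friesian cattle on a diet of 70% concentrate and 30% grass silage, and only the amount offered differed. According to the paper, bulls were blocked by live weight and age and given a diet within each block. ADLIB bulls had free access to feed throughout, while RES bulls received an allowance set for a growth of 0.6 kg per day during the 125 days of Period 1. Over the 55 days of Period 2, the phase of compensatory growth (CG), RES bulls were first built up to free access and then kept on it. Papillae were taken at slaughter, so bulls of the 2 periods are different animals and each contributed 1 library, with 9 ADLIB and 9 RES bulls in Period 1 and 10 ADLIB and 10 RES bulls in Period 2. The tissue field of the labels names rumen epithelium, although their extraction text speaks of muscle. Papillae are finger-like folds of the rumen wall covered by a stratified epithelium, which takes up the short-chain fatty acids that microbes release from feed. The tissue responds to feed supply in its surface area and metabolism, and whole papillae also hold connective tissue, vessels and immune cells. In such bulk samples, fewer cells of a type and less RNA per cell cannot be told apart.

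Expression is given as CPM, a read count scaled to the size of its library, on the scale deposited for each period. Libraries held 5948453 to 11957654 recovered reads. The column headings of the libraries hold a number from 1 to 4 that the labels leave unexplained, called the library digit here. The fewest reads (5948453 to 7349256) were in the 10 libraries of digit 1, which comprised 1 ADLIB and 4 RES bulls of Period 1 and 2 ADLIB and 3 RES bulls of Period 2.

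Both genes were weakly expressed. ENSBTAG00000036028 averaged 4.00 CPM over the 38 bulls, above 15.1% of the genes listed in both periods, and rested on 11 to 97 reads per sample with a median of 35. ENSBTAG00000048087 averaged 3.05 CPM, above 10.9% of genes, and rested on 11 to 57 reads with a median of 24. At the average depth, counting error alone gives a standard deviation of 16.6% of the mean for the former and 19.0% for the latter. Every library had reads on both genes, so neither was undetected in any bull.

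In ENSBTAG00000036028, ADLIB bulls of Period 1 ran from 2.19 to 4.14 CPM with a median of 3.34, and RES bulls of Period 1 from 4.01 to 7.35 CPM with a median of 5.07. All 9 RES bulls lay above the ADLIB median and 7 lay above every ADLIB bull, and the ranges met only between the lowest RES and the highest ADLIB values. The means were 3.31 ± 0.584 CPM (SD, n = 9) in ADLIB and 5.47 ± 1.22 CPM (SD, n = 9) in RES, a ratio of 1.65. In Period 2 the order was the opposite. ADLIB bulls ran from 2.39 to 10.1 CPM with a median of 4.18, and RES bulls from 1.44 to 3.76 CPM with a median of 2.45. All 10 RES bulls lay below the ADLIB median and 5 lay below every ADLIB bull. The means were 4.67 ± 2.09 CPM (SD, n = 10) in ADLIB and 2.61 ± 0.849 CPM (SD, n = 10) in RES, with ADLIB higher by a ratio of 1.79. The ADLIB mean included replicate 9 at 10.1 CPM, and without this bull it was 4.06 ± 0.879 CPM (SD, n = 9).

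ENSBTAG00000048087 showed the reverse order in both periods. In Period 1, ADLIB bulls ran from 2.22 to 6.11 CPM with a median of 3.76, and RES bulls from 1.04 to 3.0998 CPM with a median of 2.11. All 9 RES bulls lay below the ADLIB median, 5 lay below every ADLIB bull, and the lowest values (1.04 and 1.21 CPM) belonged to RES replicates 4 and 1. The means were 3.82 ± 1.18 CPM (SD, n = 9) in ADLIB and 2.15 ± 0.689 CPM (SD, n = 9) in RES, with ADLIB higher by a ratio of 1.78. In Period 2, ADLIB bulls ran from 1.65 to 3.44 CPM with a median of 2.34, and RES bulls from 2.00 to 4.98 CPM with a median of 3.70. Of the 10 RES bulls, 9 lay above the ADLIB median and 6 above every ADLIB bull, while RES replicate 3 lay below that median with 2.00 CPM. The means were 2.46 ± 0.569 CPM (SD, n = 10) in ADLIB and 3.75 ± 0.974 CPM (SD, n = 10) in RES, a ratio of 1.53.

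**Figure D1:**
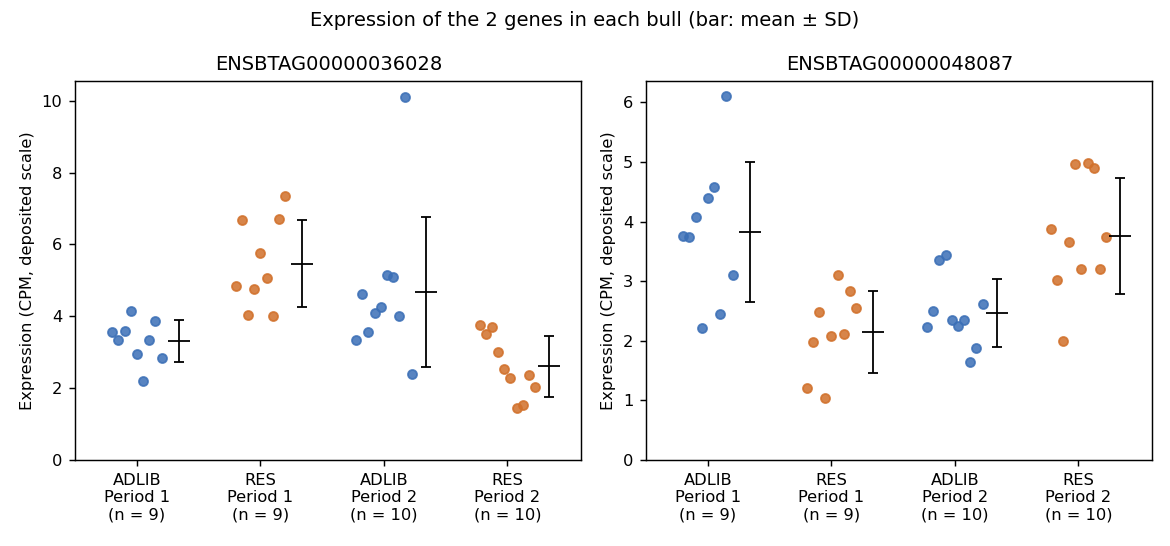
Expression of ENSBTAG00000036028 (left) and ENSBTAG00000048087 (right) in CPM on the deposited scale for each of the 38 bulls, with blue points for ADLIB, orange points for RES and black bars for the group mean ± SD. In the left panel RES lies above ADLIB in Period 1 and below it in Period 2, with 1 ADLIB bull of Period 2 at 10.1 CPM, and in the right panel the order is the opposite.

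On the log2(CPM + 1) scale, with all 38 libraries scaled together, RES minus ADLIB was 0.58 (standard error 0.157) in Period 1 and -0.62 (standard error 0.149) in Period 2 for ENSBTAG00000036028. For ENSBTAG00000048087 the same differences were -0.61 (standard error 0.148) and 0.45 (standard error 0.140). From Period 1 to Period 2 the diet difference thus changed by -1.19 (standard error 0.216) in the former and by 1.05 (standard error 0.203) in the latter. These differences chose the genes, so no test is given for them. Opposite signs alone were common, and 5336 of 12543 genes (42.5%) had them. In most of these genes the differences were small, with a median of 0.0450 for the smaller of the 2 sizes and a 95th percentile of 0.187. The smaller size was 0.575 in ENSBTAG00000036028, which ranked 15 among the genes with opposite signs, and 0.446 in ENSBTAG00000048087, which ranked 21. Opposite signs with both sizes at least as large as in ENSBTAG00000048087 were found in 21 genes (0.167%), these 2 included. In the direction of ENSBTAG00000048087, lower in restricted bulls and higher in re-alimented ones, it ranked 4 of 2699 genes, and ENSBTAG00000036028 ranked 12 of the 2637 genes with the other direction.

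**Figure D2:**
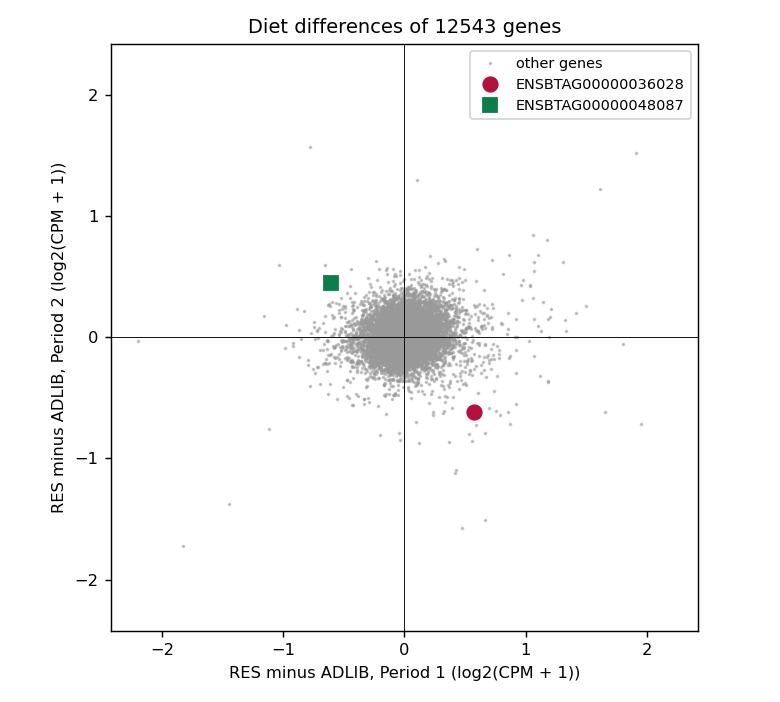
RES minus ADLIB on the log2(CPM + 1) scale in Period 1 (horizontal axis) and Period 2 (vertical axis) for 12543 genes, 1 point per gene. Most genes lie near 0 on both axes, while ENSBTAG00000036028 (0.58, -0.62) lies in the lower right quadrant and ENSBTAG00000048087 (-0.61, 0.45) in the upper left.

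The library digit was compared with these values because RES of Period 1 held more of the shallow libraries than ADLIB. Bulls of both diets were present for every digit in both periods, with 1 to 4 bulls per diet. Within a digit, the Period 1 difference of ENSBTAG00000036028 was positive for 4 of 4 digits (0.049 to 1.04), and its Period 2 difference was negative for 3 of 4 digits and 0.059 for digit 3. For ENSBTAG00000048087 it was negative for 4 of 4 digits in Period 1 (-0.91 to -0.18) and positive for 4 of 4 in Period 2 (0.27 to 0.60). With only the libraries of digits 2 to 4, the differences were 0.47 and -0.60 for ENSBTAG00000036028 and -0.74 and 0.49 for ENSBTAG00000048087. The genes were chosen for these signs in the same bulls, so the values within digits are a description. An effect of depth was not tested.

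Seen by group, the order of the means of ENSBTAG00000036028 from the lowest was RES Period 2, ADLIB Period 1, ADLIB Period 2 and RES Period 1. The gaps between neighbours in that order were 0.700, 1.36 and 0.800 CPM, each smaller than the larger SD of the 2 neighbours. Without ADLIB Period 2 replicate 9, left out here after its value was seen, the gap between ADLIB Period 2 and RES Period 1 was 1.40 CPM, above the larger SD of 1.22 CPM, and the order and the other calls were the same. In ENSBTAG00000048087 the order was RES Period 1, ADLIB Period 2, RES Period 2 and ADLIB Period 1. Here the gap of 1.29 CPM between ADLIB Period 2 and RES Period 2 was larger than the larger SD (0.974 CPM), whereas the gaps of 0.308 CPM below it and 0.0703 CPM above it were smaller than the spread. The lower pair and the upper pair of groups each joined the RES bulls of one period with the ADLIB bulls of the other. The gap of 1.29 CPM is the Period 2 diet difference of this gene. Such differences chose the genes, so the order and the pairing of groups are a description only.

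The diets therefore followed opposite courses over the periods. In RES, ENSBTAG00000036028 was lower by 0.85 on the log2 scale in Period 2 (standard error 0.153), and no RES bull of Period 2 reached the lowest RES bull of Period 1, as 3.76 CPM was the highest value in the former and 4.01 CPM the lowest in the latter. The RES ranges of the 2 periods did not overlap in 20 of 12543 genes (0.159%). In ADLIB it was higher in Period 2 by 0.34 (standard error 0.153), a value that was 0.22 without ADLIB Period 2 replicate 9. ENSBTAG00000048087 was higher in Period 2 by 0.60 (standard error 0.144) in RES and lower by 0.46 (standard error 0.144) in ADLIB, and its ranges overlapped in both diets. Change within a diet uses the same samples as the diet differences, so these values are also a description.

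The ratio of the 2 genes within a bull does not depend on library size. Its absolute value depends on the unknown lengths of the genes, so it was compared between groups only. The log2 ratio of ENSBTAG00000036028 to ENSBTAG00000048087 was -0.17 ± 0.586 (SD, n = 9) in ADLIB and 1.39 ± 0.541 (SD, n = 9) in RES bulls of Period 1. After re-alimentation it was 0.86 ± 0.734 (SD, n = 10) for ADLIB and -0.55 ± 0.821 (SD, n = 10) for RES. RES minus ADLIB was thus 1.56 (standard error 0.266) in Period 1 and -1.41 (standard error 0.348) in Period 2. In Period 1, 7 of 9 RES bulls had a ratio above every ADLIB bull, and in Period 2, 7 of 10 RES bulls had a ratio below every ADLIB bull. The ratio combines the values that chose the genes and is no further evidence for them.

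**Figure D3:**
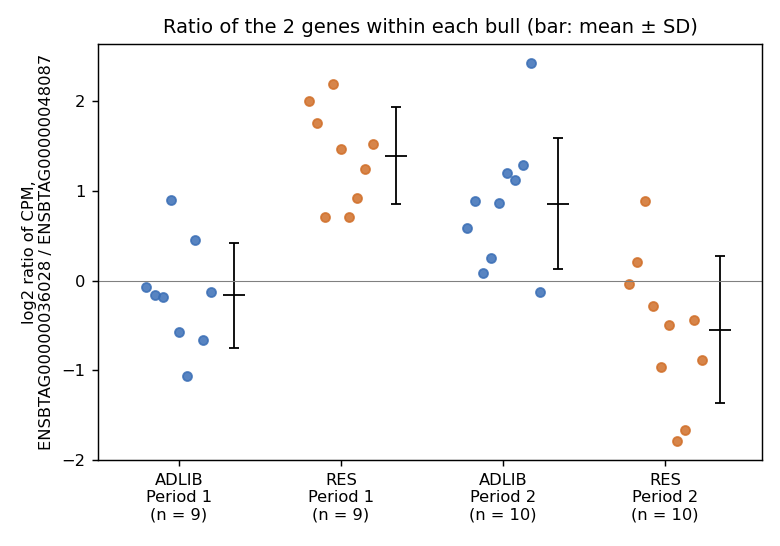
The log2 ratio of the CPM of ENSBTAG00000036028 to that of ENSBTAG00000048087 in each bull, with blue points for ADLIB, orange points for RES and black bars for the group mean ± SD. The group means are -0.17 and 1.39 for ADLIB and RES in Period 1, and 0.86 and -0.55 in Period 2.

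The average of the period change over both diets is independent of the diet differences and was tested. ENSBTAG00000036028 was 0.26 lower in Period 2 on the log2 scale (standard error 0.108, 95% interval -0.47 to -0.038), with an adjusted p of 0.217 (limma with Benjamini-Hochberg adjustment over 12543 genes), and the bulls below the Period 1 median of their own diet in Period 2 were 1 of 10 in ADLIB and 10 of 10 in RES. The average change of ENSBTAG00000048087 was 0.072 (standard error 0.102, 95% interval -0.13 to 0.28, adjusted p = 0.789 from limma), and the bulls above that median were 0 of 10 in ADLIB and 9 of 10 in RES. Both averages therefore joined opposite shifts of the diets. Neither gene passed the threshold of an adjusted p under 0.05, which 221 of 12543 genes (1.76%) passed.

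Variation between bulls of the same group was similar to that of other genes at this level. The within-group SD of ENSBTAG00000036028 was 0.334 on the log2(CPM + 1) scale, larger than in 43.6% of the 500 genes nearest to it in mean expression, whose median was 0.350. For ENSBTAG00000048087 it was 0.311, larger than in 30.0% of such genes (median 0.357). The variance of the reads within groups was 3.74 times and 2.28 times, respectively, the variance that counting alone gives. The value of ENSBTAG00000036028 rested largely on ADLIB Period 2 replicate 9, without which it was 1.95 and its SD was 0.281, larger than in 21.6% of genes of similar level. Without this bull the values of ENSBTAG00000048087 were 2.30 and 0.312.

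**Figure D4:**
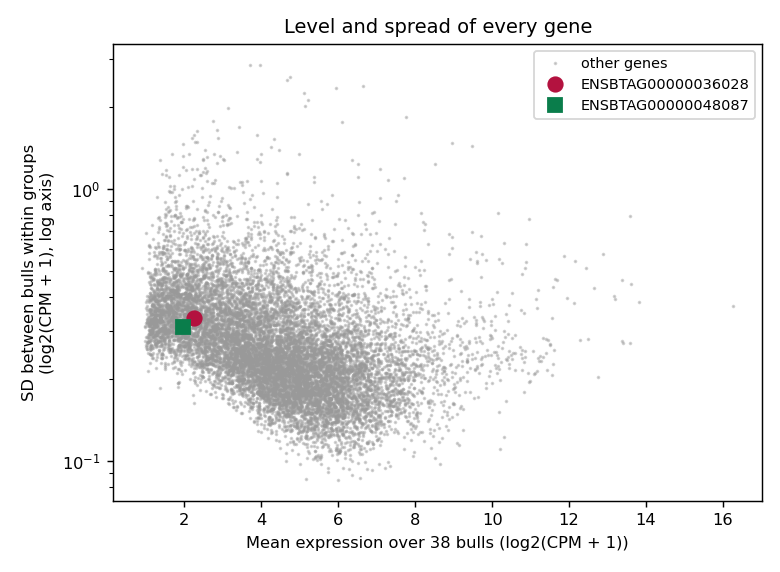
Mean expression over 38 bulls (horizontal axis, log2(CPM + 1)) against the SD between bulls within groups (vertical axis, log2(CPM + 1), log axis) for 12543 genes, 1 point per gene. Both genes lie at the low end of expression, with SDs of 0.334 and 0.311 among those of the genes around them.

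Whether the genes also moved in opposite directions from bull to bull was tested on deviations from the group means, which the rule of opposite signs did not use. That rule alone does not single out these genes, and whether the spread between bulls had a part in the choice is not known. Over the 38 bulls Pearson's r was -0.27 (p = 0.0916, permutation of bulls within groups, two-sided) and Spearman's rho was -0.23 (p = 0.172, permutation). Adjusted over 5 correlations, the pooled one and 1 for each group, these were p = 0.229 and p = 0.430 (permutation). Without the 2 bulls farthest from the median of ENSBTAG00000036028, r was -0.23. Within groups, r was -0.19 for ADLIB and 0.27 for RES bulls of Period 1, and -0.41 for ADLIB and -0.66 for RES bulls of Period 2. The last had the smallest p (0.0377 for Pearson's r, adjusted p = 0.189, and 0.124 for Spearman's rho, permutation tests), and none passed after adjustment. Within library digits 1 to 4, r was -0.46, -0.029, -0.45 and -0.12.

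**Figure D5:**
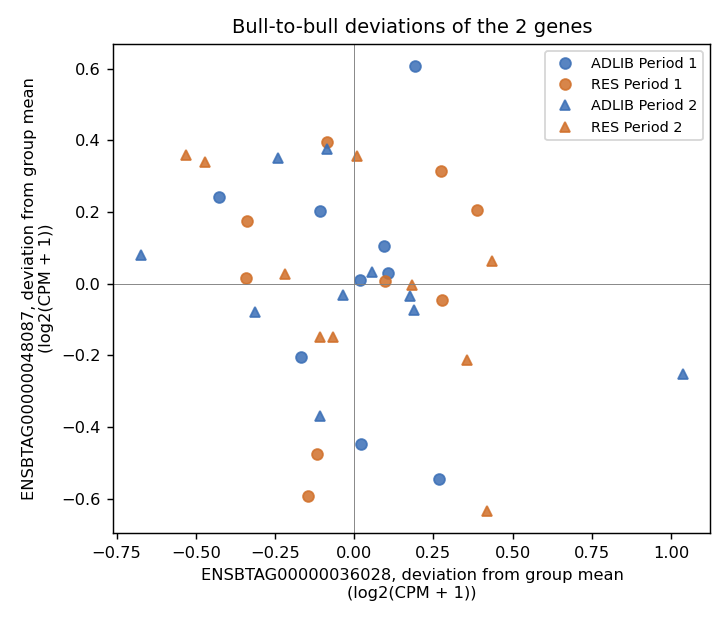
Deviation of each bull from the mean of its group for ENSBTAG00000036028 (horizontal axis) and ENSBTAG00000048087 (vertical axis) on the log2(CPM + 1) scale, with blue for ADLIB, orange for RES, circles for Period 1 and triangles for Period 2. The points scatter widely (r = -0.27 over 38 bulls), and the triangle at the far right is ADLIB Period 2 replicate 9.

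The genes most like each of them from bull to bull were sought among the other 12542 genes by the same deviations over 38 bulls, as a description. The highest r with ENSBTAG00000036028 was 0.66, in ENSBTAG00000005984 (mean 85.2 CPM), and the lowest was -0.65, in ENSBTAG00000005078 (mean 3.12 CPM). For ENSBTAG00000048087 the highest was 0.59, in ENSBTAG00000046323 (mean 29.2 CPM), and the lowest was -0.63, in ENSBTAG00000001125 (mean 2.37 CPM). All these r values include ADLIB Period 2 replicate 9, whose deviation in ENSBTAG00000036028 was 1.04, and are not given without it. Against all genes, 95% of the r values lay between -0.38 and 0.36 for ENSBTAG00000036028 and between -0.36 and 0.34 for ENSBTAG00000048087. The r between the 2 genes lay inside both ranges. In Periods 1 and 2, RES minus ADLIB was 0.026 and -0.042 in ENSBTAG00000005984, the signs of ENSBTAG00000036028 at a much smaller size, and 0.17 and -0.0031 in ENSBTAG00000005078. It was 0.0050 and 0.070 in ENSBTAG00000046323. ENSBTAG00000001125 had 1.33 and 0.055, so that its Period 1 difference was larger than that of ENSBTAG00000048087 and of the other sign.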

How the data were processed

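Single-end RNA-seq of rumen papillae from 38 bulls was analysed in 4 groups read from the sample titles. According to the methods, the authors trimmed the reads, aligned them to UMD3.1 with TopHat and Bowtie2, counted them per Ensembl gene with HTSeq and removed genes with low counts. The deposited signal is CPM, a count divided by a TMM-scaled library size, and sums to between 885534 and 1320450 per sample. In every sample all values up to 1000 reads were whole multiples of 1 read (within 0.01 of a read), so whole reads were recovered. TMM within each period gave the deposited scale. Here the 38 libraries were rescaled together by TMM (edgeR 4.0.16), and log2(CPM + 1) was fitted with limma 3.58.1 (4 groups, variance trend, two-sided, Benjamini-Hochberg) in R 4.3.3. filterByExpr removed no gene. Correlations were tested with 100000 permutations, or exactly for the groups of 9. Scripts were tested on simulated data. The genes and tests were chosen with earlier results of these data known. The genes described besides the 2 are the highest and the lowest correlate of each, since no symbols were available, and the marker lists planned were void for the same reason. Alternatives used other scalings, pseudocounts, filters, covariates, edgeR's quasi-likelihood test, DESeq2 1.42.0 and voom. Recovered reads per sample ranged from 5948453 to 11957654. Intervals that rest on reads cover counting error only.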

Additional observations from a re-analysis of the deposited data

Results flagged for a closer look

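Among 12 combinations of a group with ENSBTAG00000036028, ENSBTAG00000048087 or their log2 ratio, 1 bull lay further from the rest of its group than Dixon's 95% limit, which chance passes in about 1 in 20 groups. ENSBTAG00000036028 in ADLIB Period 2 replicate 9 had 10.1 CPM against 5.16 CPM in the next bull, a gap of 0.497 of the group's range on the log2(CPM + 1) scale. The value rests on 97 reads, with an exact Poisson 95% interval of 8.20 to 12.3 CPM that lies above the next bull. The SD of its deviations from the group mean over all genes was 0.407, the third largest of the 38 libraries (median 0.301). The part of this in the result was not tested. Without this bull the Period 2 difference of ENSBTAG00000036028 was -0.50 in place of -0.62.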

How the results depend on the processing

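The diet differences of both genes, their changes over the periods within each diet and their average period effects kept their direction under all 11 alternatives that used another scaling, pseudocount, filter, model, covariate or only the libraries with digits 2 to 4 (the last chosen after the data were seen), and under each of 38 fits that left out 1 bull. The other filters left the same genes and are no test, nor is the replicate block for diet differences. The genes were chosen for the signs of their diet differences in these bulls. A kept direction of those, or of changes within a diet, is no further evidence. Over the 11 alternatives, RES minus ADLIB of ENSBTAG00000036028 ran from 0.47 to 0.71 in Period 1 and from -0.85 to -0.60 in Period 2, and that of ENSBTAG00000048087 from -0.88 to -0.60 and from 0.39 to 0.62. Over the fits without 1 bull, the ranges were 0.52 to 0.62 and -0.69 to -0.50 for the former, and -0.68 to -0.53 and 0.41 to 0.52 for the latter. The count models, voom and a pseudocount of 0.1 gave the larger sizes, since log2(CPM + 1) understates the changes of weakly expressed genes.

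The adjusted p of the average period effect stayed above 0.05 for both genes throughout. For ENSBTAG00000036028 the lowest adjusted p was 0.0512 (limma), without ADLIB Period 2 replicate 9, with an effect of -0.32. The number of genes passing for this effect was 221, against 354 with DESeq2, 117 with the replicate block and 6 with digits 2 to 4 (28 bulls). Leaving out 1 bull gave from 137 to 402, the extremes without ADLIB Period 1 replicate 8 and ADLIB Period 2 replicate 9, and 141 without ADLIB Period 1 replicate 1. The cause was not tested. The correlation between the genes ran from -0.33 to -0.20 without 1 bull, and its p fell to 0.0451 (permutation) without ADLIB Period 1 replicate 8.

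Replicate numbers are shared by the groups, but nothing in the sources says that they pair bulls. Across genes, the deviations of same-numbered ADLIB and RES bulls correlated at 0.0570 on average, over 0.1 in 7 of 19 pairs. The replicate block joined same-numbered bulls of both diets and periods, so it cannot change diet differences. It gave average period effects of -0.21 and 0.066 and an r of -0.23. Depth limits single bulls most, at 11 to 97 reads per gene and library.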
